A study of Mus musculus with 8 samples.

Results

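The mitotic cell cycle genes described here are 10 genes chosen by name and Ensembl identifier, of 28785 genes listed in at least 1 library. They are Ccnb1 (ENSMUSG00000041431), Cdk1 (ENSMUSG00000019942), Plk1 (ENSMUSG00000030867), Top2a (ENSMUSG00000020914), Mki67 (ENSMUSG00000031004), Aurka (ENSMUSG00000027496), Ccna2 (ENSMUSG00000027715), Cdc20 (ENSMUSG00000006398), Bub1 (ENSMUSG00000027379) and Kif11 (ENSMUSG00000012443). The cells were mouse embryonic fibroblasts, which divide in culture, of TSC2+/+ genotype and C57BL/6J strain. One set was unstressed, and the other spent 1 h at 42 °C followed by 3 h of recovery at 37 °C, which is called after heat shock below. RNA-seq was made from the cytoplasm and from the washed chromatin pellet of each condition. This gave 4 libraries, with 1 library per fraction and condition, so no value has a replicate spread, no test across libraries was possible, and the values describe these libraries. The other 4 samples of the series, m6A immunoprecipitates of chromatin RNA and their inputs, were not analysed here.

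Entry into mitosis is driven by cyclin-dependent kinase 1 bound to A- and B-type cyclins, and is helped by the Polo and Aurora kinases. The spindle checkpoint then holds the anaphase-promoting complex, a ubiquitin ligase, until every chromosome is attached, after which cyclin B is destroyed and the cell divides. The RNAs of these genes are made mainly late in the cell cycle, so that a culture with fewer dividing cells holds less of them. In bulk RNA, fewer cells in mitosis and less RNA per cell cannot be told apart.

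The library totals implied by the deposited values were 18364642 reads in chromatin without heat shock and 19536459 after it, and 8292312 and 11131382 in cytoplasm. Levels are RPKM, reads scaled to the gene's length and to the library's total, as the authors deposited them. The gene lengths implied by the values were 89.1% (Ccna2) to 102% (Ccnb1) of the span of the gene of that name in RefSeq's GRCm38.p6 annotation, from 4452 bp for Cdc20 to 45457 bp for Kif11, so an RPKM here is per length of the whole gene with introns. The match of spans is a check of the gene names, which the files do not carry. All 10 genes were listed in all 4 libraries, with 112 to 4829 reads each, and all passed the filter of a mean RPKM of 0.5 or more, which left 7762 genes as the background. Markers of fibroblasts and of other cells were not used here, because the identifiers are paired with names only for the 10 genes.

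Promoters of the mitotic genes are known for the cell cycle genes homology region (CHR), where repressing and activating complexes alternate, and for CCAAT boxes bound by NF-Y. RefSeq promoter windows of 300 bases, from 250 before to 50 after the gene start, matched 9 of the 10 genes, and Ccna2 had no entry. The 250 bases before the start that the RefSeq promoter table uses are shown for the 2 of these 9 genes with the highest heat shock ratio in chromatin (Kif11 and Aurka) and the 2 with the lowest (Ccnb1 and Top2a), 5′ to 3′ on the gene's strand. For Aurka this start lies inside the span of the gene in the annotation, whose outer end is at chr2:172370886, so its window is within the annotated gene, and for Top2a it lies a few bases inside the span. Capitals mark the letters TTTGAA and their variant TTTAAA on either strand, and the CCAAT box on either strand (ATTGG on the other).

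Kif11, chr19:37376132-37376381, plus strand: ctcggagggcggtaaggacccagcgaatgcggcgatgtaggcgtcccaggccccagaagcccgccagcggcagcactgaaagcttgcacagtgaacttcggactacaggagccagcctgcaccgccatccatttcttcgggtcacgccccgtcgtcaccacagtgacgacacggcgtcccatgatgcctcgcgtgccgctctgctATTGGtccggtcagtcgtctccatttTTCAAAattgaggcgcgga
Aurka, chr2:172370571-172370820, minus strand: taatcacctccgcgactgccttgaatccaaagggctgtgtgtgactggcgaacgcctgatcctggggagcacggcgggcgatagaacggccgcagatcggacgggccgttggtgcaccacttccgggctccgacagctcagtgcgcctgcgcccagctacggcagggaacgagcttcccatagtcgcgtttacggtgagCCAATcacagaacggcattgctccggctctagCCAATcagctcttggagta
Ccnb1, chr13:100786487-100786736, minus strand: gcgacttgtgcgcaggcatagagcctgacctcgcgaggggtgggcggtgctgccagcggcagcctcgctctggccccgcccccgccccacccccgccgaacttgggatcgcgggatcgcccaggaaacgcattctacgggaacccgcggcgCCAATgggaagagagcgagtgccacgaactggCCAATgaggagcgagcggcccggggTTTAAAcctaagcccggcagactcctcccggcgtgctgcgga
Top2a, chr11:99024190-99024439, minus strand: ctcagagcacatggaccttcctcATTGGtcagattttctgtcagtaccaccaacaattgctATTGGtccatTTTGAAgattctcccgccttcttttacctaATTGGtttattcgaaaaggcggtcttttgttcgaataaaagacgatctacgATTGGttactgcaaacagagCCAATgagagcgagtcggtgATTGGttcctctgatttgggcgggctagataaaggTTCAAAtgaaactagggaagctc

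In the whole windows, the CHR letters TTTGAA were present on either strand in 7 of 9 mitotic genes and in 17.9% of 32851 mouse promoter windows. The variant TTTAAA was present in 3 of 9 and in 13.2%, and CCAAT in 9 of 9 and in 37.4%. Kif11 held 1 TTTGAA, on the minus strand 19 to 14 bases before the start, and Top2a held 2, at -179 to -174 and at -23 to -18 from the start. Ccnb1 held TTTAAA 42 to 37 bases before the start, and its CCAAT boxes lay at -99 and -67. Aurka held TTTGAA at 33 to 38 and TTTAAA at 18 to 23 bases after the start, outside the bases shown. Kif11 and Top2a, the genes with the highest and the lowest ratio, thus both held TTTGAA and CCAAT before the start. These are matches of letters only.

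In chromatin, all 10 mitotic genes were higher after heat shock than without it, by 1.27-fold (Top2a) to 2.83-fold (Kif11). In cytoplasm, all 10 were lower, at 0.507 (Mki67) to 0.885 (Aurka) of the unstressed level. Together they took 0.0488% of chromatin reads without heat shock and 0.0815% after it, against 0.0476% and 0.0316% of cytoplasmic reads. The ratio of these shares was 1.67 in chromatin (exact 95% Clopper-Pearson interval on reads, 1.63 to 1.72) and 0.664 in cytoplasm (0.635 to 0.695). All intervals given here cover counting error only, since the reads carry no molecular identifiers and may be copies of 1 molecule. The chromatin direction holds for each of the 10 genes on the deposited scale, but Ccnb1, Cdc20 and Top2a turn to lower (log2 ratios of -0.27, -0.27 and -0.29) when the libraries are set to the same RPKM sum. The cytoplasmic direction depends on the scale as well, and Ccnb1, Top2a, Kif11, Aurka and Bub1 turn to higher (log2 ratios of 0.054, 0.019, 0.012, 0.31 and 0.21) when the kept genes' median is set to 0.

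**Figure D1:**
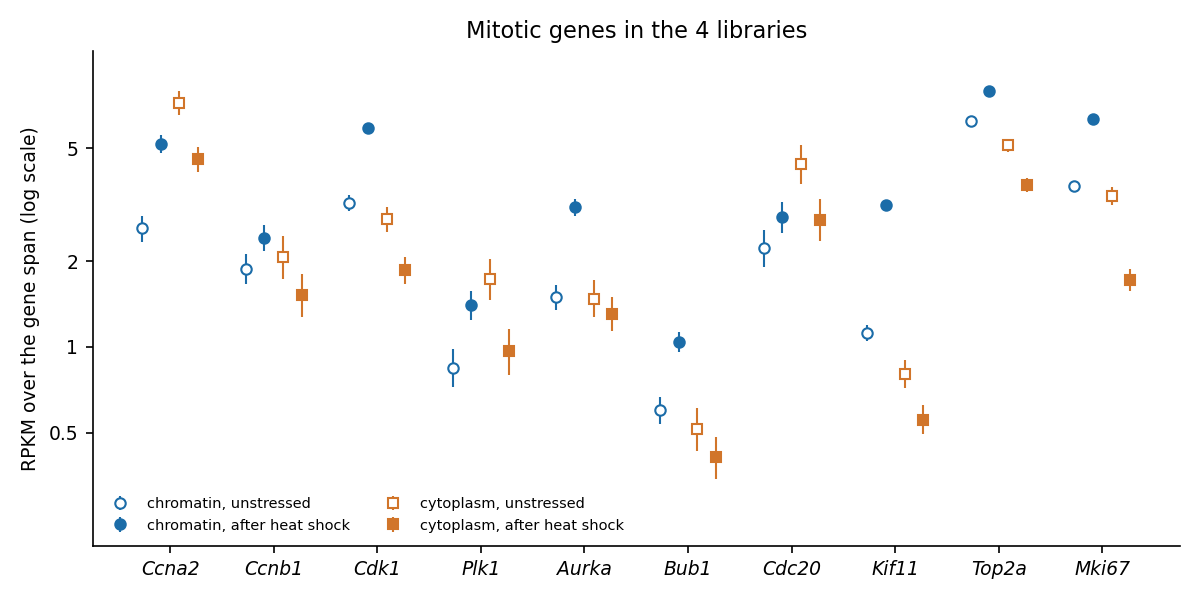
RPKM over the gene span of each mitotic gene (log axis) in the 4 libraries, 1 library per point; bars are exact 95% Poisson intervals on reads. Each filled circle (chromatin after heat shock) lies above its open circle, and each filled square (cytoplasm after heat shock) below its open square.

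The cyclins and their kinase were the first group. Ccna2, the A-type cyclin of S phase and early mitosis, was at 2.61 RPKM in chromatin without heat shock and 5.16 after it, and at 7.20 and 4.57 RPKM in cytoplasm. This was 1.98-fold higher in chromatin (1.74 to 2.25) and 0.635 of the unstressed level in cytoplasm (0.552 to 0.731). On the deposited scale Ccna2 was thus highest in unstressed cytoplasm and lowest in unstressed chromatin. With equal RPKM sums it was higher in chromatin than in cytoplasm, at log2 ratios of 0.20 without heat shock and 1.40 after it. Cdk1, the kinase that the mitotic cyclins activate, was at 3.22 and 5.87 RPKM in chromatin and at 2.82 and 1.86 RPKM in cytoplasm. Its ratio after heat shock was 1.82 in chromatin (1.69 to 1.97) and 0.661 in cytoplasm (0.569 to 0.767). On the deposited scale heat-shocked chromatin was the highest of its libraries and heat-shocked cytoplasm the lowest. Ccnb1, the B-type cyclin whose destruction ends mitosis, moved less in chromatin, from 1.88 to 2.42 RPKM (1.28-fold, 1.09 to 1.51). It was at 2.07 and 1.52 RPKM in cytoplasm (0.734, 0.574 to 0.939).

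Of the mitotic kinases, Plk1, the Polo-like kinase of mitotic entry and spindle poles, was at 0.845 RPKM in chromatin without heat shock and 1.40 after it, a ratio of 1.66 (1.36 to 2.02). In cytoplasm it was at 1.73 and 0.964 RPKM, a ratio of 0.556 (0.432 to 0.715). On the deposited scale unstressed cytoplasm held the highest Plk1 level and unstressed chromatin the lowest. With equal RPKM sums Plk1 was higher in unstressed chromatin than in unstressed cytoplasm, at a log2 ratio of 0.59. Aurka, the Aurora kinase of centrosomes and spindle poles, was at 1.50 and 3.10 RPKM in chromatin, 2.07-fold higher after heat shock (1.84 to 2.34). In cytoplasm it was at 1.48 and 1.31 RPKM, and the interval of its ratio (0.720 to 1.09) included 1. On the deposited scale Aurka was therefore higher in heat-shocked chromatin than in the other libraries, which lay close together.

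Of the checkpoint genes, Bub1, a kinase at kinetochores that signals unattached chromosomes, had the lowest level per length in each of the 4 libraries. It was at 0.599 RPKM in chromatin without heat shock and 1.04 after it (1.74-fold, 1.52 to 1.99), and at 0.514 and 0.409 in cytoplasm (0.796, 0.623 to 1.02, an interval that includes 1). Cdc20, the activator of the anaphase-promoting complex that the checkpoint restrains, was at 2.23 and 2.86 RPKM in chromatin (1.29-fold, 1.06 to 1.57). In cytoplasm it was at 4.39 and 2.80 RPKM (0.639, 0.506 to 0.807). In chromatin the heat shock ratio of Bub1 over that of Cdc20 was 1.35, with an interval that left out 1 (1.07 to 1.72). In cytoplasm it was 1.25, with an interval that included 1 (0.884 to 1.75).

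Kif11, the kinesin motor that pushes the spindle poles apart, had the largest heat shock ratio in chromatin. It was at 1.12 RPKM without heat shock (932 reads) and 3.16 after it (2808 reads), 2.83-fold higher (2.63 to 3.05). In cytoplasm it was at 0.804 and 0.555 RPKM, a ratio of 0.691 (0.585 to 0.815). Its log2 ratio in chromatin lay above that of 92.1% of the kept genes, while in cytoplasm 51.5% of kept genes lay below it.

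Of the chromosome proteins, Top2a, the topoisomerase that untangles sister chromatids, had the highest level per length in both chromatin libraries. It was at 6.22 RPKM without heat shock and 7.91 after it in chromatin (1.27-fold, 1.22 to 1.33), and at 5.12 and 3.70 RPKM in cytoplasm (0.723, 0.669 to 0.781). Mki67, the Ki-67 protein that coats mitotic chromosomes and marks dividing cells, was at 3.67 and 6.31 RPKM in chromatin (1.72-fold, 1.62 to 1.82). In cytoplasm it had the lowest ratio of the 10 genes, at 3.39 and 1.72 RPKM (0.507, 0.452 to 0.568).

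**Figure D2:**
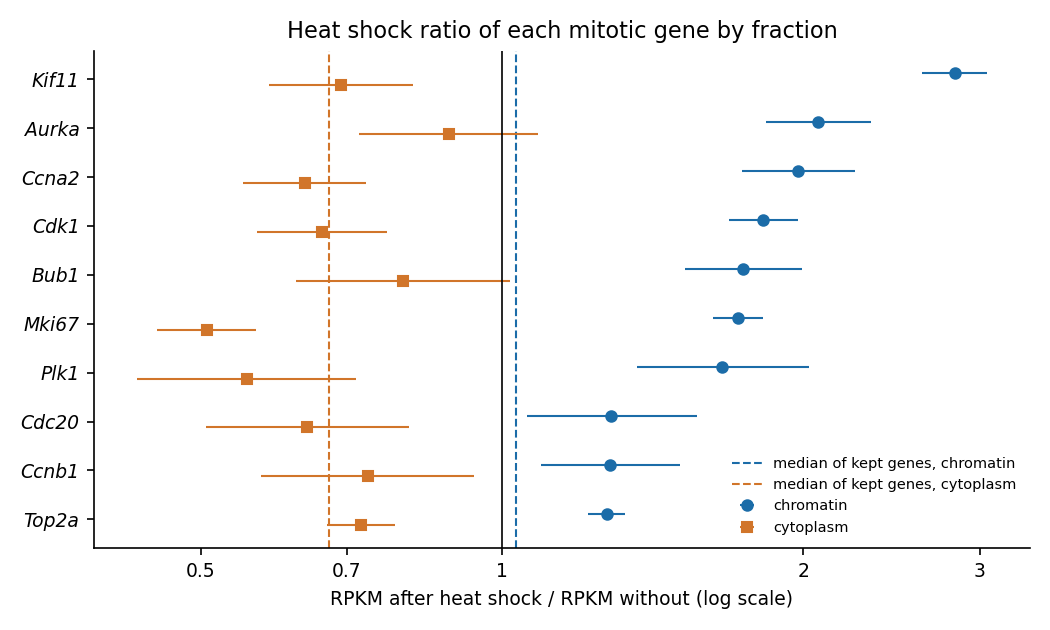
RPKM after heat shock over RPKM without it (log axis) for each mitotic gene, circles for chromatin and squares for cytoplasm, 1 library per condition; bars are exact 95% Clopper-Pearson intervals on reads, and dashed lines are medians of the kept genes. In chromatin the 10 intervals lie above 1, and in cytoplasm those of Aurka and Bub1 include 1.

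The chromatin comparison set heat-shocked chromatin against unstressed chromatin across all kept genes. The fold rule, at least 2-fold on log2((RPKM + 0.1)/(RPKM + 0.1)), was passed upward by 2 of 10 mitotic genes, Kif11 and Aurka, against 13.3% of 7643 kept genes, and downward by 0 of 10, against 10.7%. Aurka passed narrowly, at a log2 ratio of 1.003, and the upward count was 0 with a pseudocount of 1 RPKM or with equal RPKM sums and 1 with the kept genes' median at 0. A log2 ratio above 0 was seen in 10 of 10, against 52% of kept genes, and a counting interval wholly above 1 in 10 of 10, against 39.8%. Whether an interval leaves out 1 depends on the number of reads. Interval shares, here and below, were computed over all kept genes only, not over genes of like depth. The median log2 ratio of the mitotic genes was 0.74 (0.34 to 1.42), against 0.044 over the kept genes, whose quartiles were -0.48 and 0.59. All 10 genes were above the median of the kept genes. Among 3664 genes with at least 100 reads in each library the median was 0.017, and 51% were above 0. Of these genes 7.53% were at least 2-fold higher and 8.82% at least 2-fold lower. Among kept genes with spans of over 5 to 50 kb, a class that leaves out Cdc20 (4452 bp), the median was 0.030. The 10 genes with the largest mean share of reads over all libraries took 21.4% of chromatin reads without heat shock and 32.6% after it. With these 10 genes left out of the totals, the median log2 ratio of the mitotic genes was 0.96, against 0.26 over the kept genes. What caused the shift in shares was not tested.

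In cytoplasm all 10 mitotic genes were lower after heat shock, as were most kept genes. A log2 ratio below 0 was seen in 10 of 10 mitotic genes and in 84.5% of 7350 kept genes, and a counting interval wholly below 1 in 8 of 10, against 62%. Their median log2 ratio was -0.52 (-0.94 to -0.16), against -0.48 over the kept genes, and 5 of 10 were above that median. This position depends on the setting, since 2 of 10 were above the kept genes' median with a pseudocount of 1 RPKM, 2 with equal RPKM sums and 1 with no filter on low values. At least 2-fold lower were 0 of 10, against 8.57% of kept genes, and 0 were at least 2-fold higher, against 4.52%. Among the genes with at least 100 reads in each library these shares were 3.41% and 1.45%, and 8.79% had a log2 ratio above 0. Mki67 and Plk1 had the lowest ratios, with 10.8% and 18.9% of kept genes below them, and Aurka the highest, with 77.7% below it. The 10 genes with the largest mean share of reads over all libraries took 75.2% of reads in unstressed cytoplasm and 79.3% in heat-shocked cytoplasm. With these 10 genes left out of the totals, the median log2 ratio was -0.30 for the mitotic genes and -0.30 over the kept genes. What caused the change in shares was not tested.

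**Figure D3:**
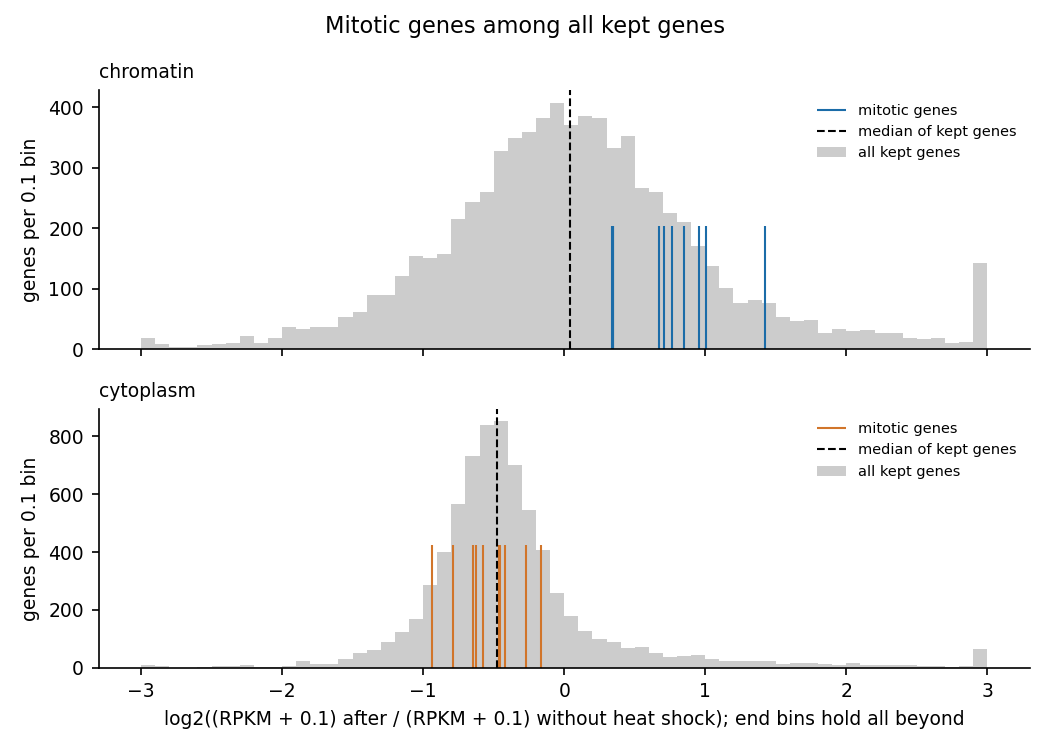
Histograms of the log2 heat shock ratio of all kept genes (grey, genes per bin of 0.1) in chromatin and cytoplasm, with a line for each mitotic gene and a dashed line at the median of the kept genes. In chromatin the 10 lines lie to the right of the median of 0.044, and in cytoplasm 5 lie on either side of the median of -0.48.

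The mitotic genes did not share a single ratio in chromatin. Of 45 pairs of genes, the ratio of the heat shock ratios had an exact interval that left out 1 in 27 pairs, with no adjustment over the pairs. Pairs of other genes were not counted in either fraction, so whether such a share is particular to the mitotic genes was not tested. Kif11 stood above its nearest neighbour Aurka by 1.37 times (1.19 to 1.58) and above Top2a by 2.23 times (2.04 to 2.43), and no other neighbouring pair in the order Kif11, Aurka, Ccna2, Cdk1, Bub1, Mki67, Plk1, Cdc20, Ccnb1, Top2a left out 1. Such ratios between genes of the same libraries do not depend on the library scale. In cytoplasm 12 of 45 pairs left out 1, and 7 of these 12 held Mki67, as the lower gene. None of the 9 neighbouring pairs in cytoplasm left out 1. Top2a over Kif11 was 1.05 times there (0.871 to 1.26).

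The next comparison set chromatin against cytoplasm in unstressed cells. Ccna2, Plk1 and Cdc20 were lower in chromatin, at 0.362 (0.314 to 0.418), 0.488 (0.388 to 0.613) and 0.507 (0.408 to 0.631) of the cytoplasmic RPKM. Kif11, Top2a and Cdk1 were higher in chromatin, by 1.39-fold (1.22 to 1.59), 1.21-fold (1.14 to 1.29) and 1.14-fold (1.01 to 1.29). The intervals of Ccnb1, Mki67, Aurka and Bub1 included 1. Intervals wholly above 1 were thus found in 3 of 10, against 68.7% of kept genes, and wholly below 1 in 3 of 10, against 16.6%. At least 2-fold lower in chromatin on the RPKM + 0.1 scale was 1 of 10, Ccna2, against 11% of 7379 kept genes, and 0 of 10 were at least 2-fold higher, against 54.8%. The median of the log2 ratios, chromatin over cytoplasm, was 0.062 (-1.43 to 0.43), against 1.16 over the kept genes, and all 10 mitotic genes were below that median. These directions depend on the library scale. With equal RPKM sums Ccna2, Plk1 and Cdc20 turn to higher in chromatin, and with the median of the kept genes at 0 Kif11, Top2a and Cdk1 turn to lower. Setting the median of the kept genes to 0 moves all genes together, so positions against that median could not change with it. With equal RPKM sums the 0.1 is added after scaling, so genes moved by unequal amounts. All 10 mitotic genes were below the median there as well.

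After heat shock, 8 of 10 intervals of the chromatin to cytoplasm ratio were wholly above 1, against 79.2% of 7482 kept genes, and those of Ccna2 (1.13, 0.994 to 1.28) and Cdc20 (1.02, 0.826 to 1.27) included 1. Kif11 was 5.69-fold higher in chromatin (5.03 to 6.46), Mki67 3.67-fold (3.34 to 4.04) and Cdk1 3.15-fold (2.80 to 3.55). At least 2-fold higher were 6 of 10, against 67.8% of kept genes, and 0 of 10 were at least 2-fold lower, against 6.46%. The median log2 ratio was 1.12 (0.029 to 2.32), against 1.64 over the kept genes, and 2 of 10, Kif11 and Mki67, were above that median. With the kept genes' median at 0 the median of the mitotic genes turns to -0.51.

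Among the mitotic genes the chromatin to cytoplasm ratio was higher for longer genes. The span includes introns, and reads from introns and exons are not told apart in these values. Across the 10 genes, which share the same libraries, Spearman's rho of the ratio with the gene span was 0.93 without heat shock and 0.83 after it (Pearson's r of the log2 values, 0.82 and 0.88). Across kept genes rho was 0.55 and 0.47. The 4 genes with spans up to 10435 bp (Cdc20, Ccna2, Ccnb1 and Plk1) had the 4 lowest ratios in both conditions. The heat shock ratio in chromatin followed the span less, with rho of 0.21 and r of 0.46 over the 10 genes, against rho of -0.28 across kept genes.

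**Figure D4:**
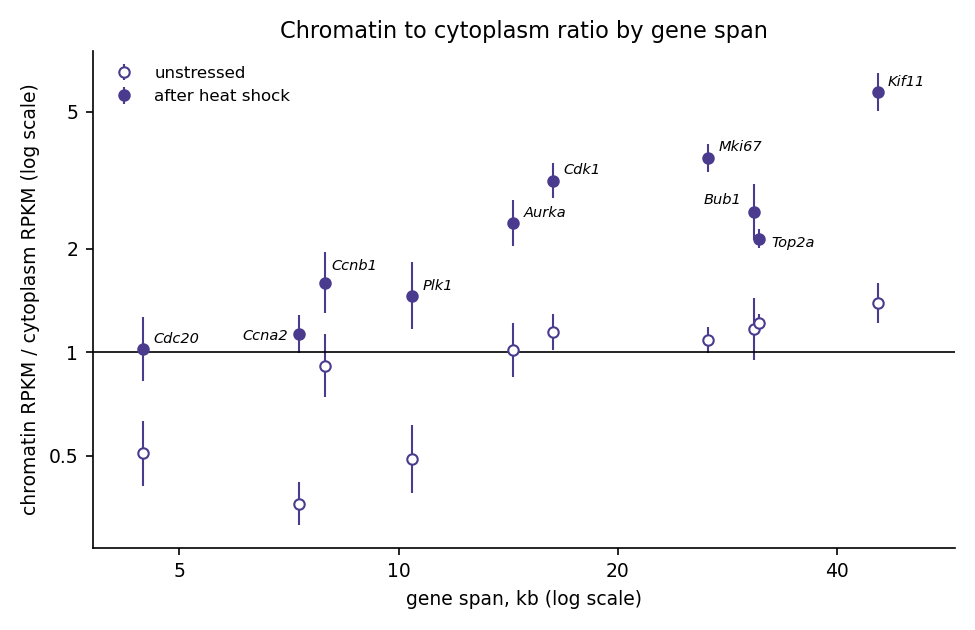
Chromatin RPKM over cytoplasm RPKM (log axis) against gene span in kb (log axis) for the 10 mitotic genes, open without and filled after heat shock; bars are exact 95% Clopper-Pearson intervals on reads. The ratios run from 0.362 to 1.39 without heat shock and from 1.02 to 5.69 after it, with Kif11 highest in both.

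The last comparison asked whether the heat shock ratio differed between the fractions. The ratio in chromatin over that in cytoplasm was 4.10 for Kif11 (exact conditional interval 3.41 to 4.92), 3.39 for Mki67 (2.99 to 3.86) and 3.11 for Ccna2 (2.57 to 3.77). It was lowest for Ccnb1 at 1.75 (1.30 to 2.35) and Top2a at 1.76 (1.61 to 1.92). All 10 intervals were above 1. No such interval was computed for the kept genes. A difference of log2 ratios above 0 was seen in 10 of 10 mitotic genes, against 73.2% of kept genes. A difference of log2 ratios of at least 1 in favour of chromatin was seen in 6 of 10 mitotic genes, against 25.5% of 7302 kept genes. Ratios above 1 in chromatin and below 1 in cytoplasm occurred together in 10 of 10, against 40.7% of kept genes. Ratios above the kept genes' median in chromatin and below it in cytoplasm occurred together in 5 of 10, against 19.7%. The median difference was 1.29 (0.77 to 1.89), against 0.48 over the kept genes, and all 10 were above that median. Making the RPKM sums equal moves genes by similar but not equal amounts. The median difference was then 0.88 and that of the kept genes 0.0089, and 4 of 10 mitotic genes passed 2-fold, against 12.4% of kept genes.

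**Figure D5:**
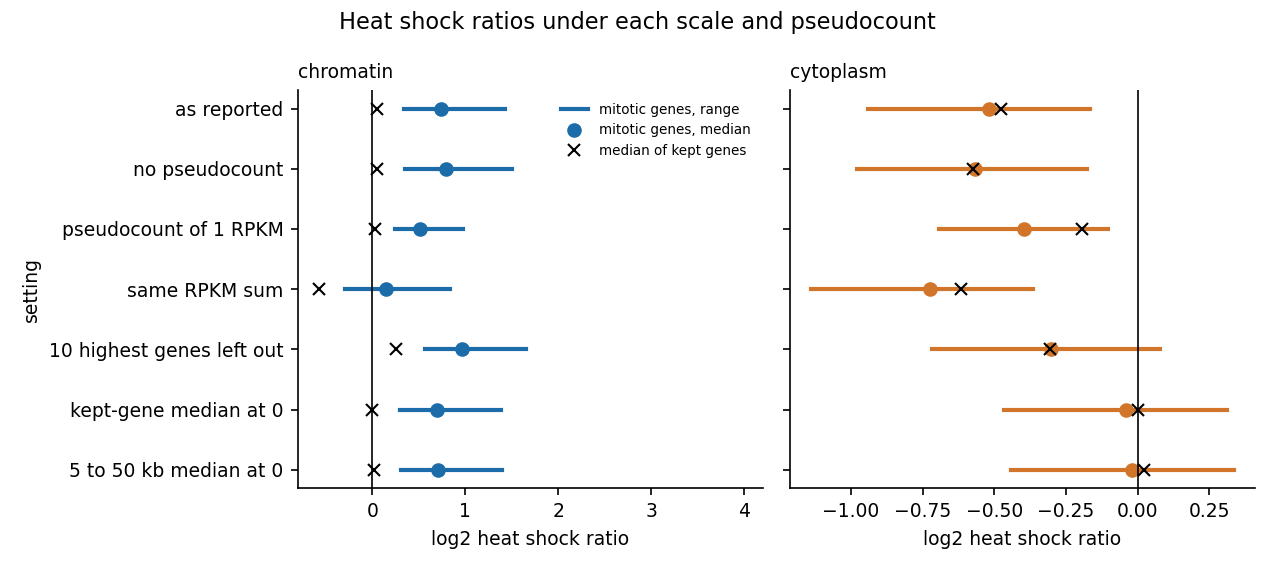
Median (circle) and range (line) of the log2 heat shock ratio of the 10 mitotic genes and the median of the kept genes (cross) in chromatin and cytoplasm under 7 settings of scale and pseudocount. In chromatin the whole range lies to the right of the cross in each setting, while in cytoplasm the cross lies within the range; a change of scale moves range and cross together.

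The genes whose pattern over the 4 libraries was most like the median mitotic gene were found by Euclidean distance between centred log2(RPKM + 0.1) values, over 7292 other genes. The nearest was ENSMUSG00000041199, with a span of 3706 bp. It was at 0.764 and 1.27 RPKM in chromatin and at 0.814 and 0.558 RPKM in cytoplasm. The next was ENSMUSG00000021282, with a span of 8653 bp, at 6.75 and 10.9 RPKM in chromatin and 6.31 and 5.24 RPKM in cytoplasm. The files do not pair these identifiers with names. Bub1 was the mitotic gene closest to the median pattern, with 29 other genes closer to it than Bub1, and Ccna2 the farthest, with 2678 closer. With 4 libraries, many genes share such a pattern.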

How the data were processed

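Sample titles gave the groups, and each of the 4 libraries is 1 group. The labels' protocols describe detergent lysis over a sucrose cushion, a urea wash that leaves the chromatin pellet, and a gel cut for short RNA fragments. The authors deposited RPKM values, 1 per gene with reads. The submitters' processing notes name cutadapt, STAR and GRCm38. How reads were assigned to genes (counter, annotation, strand, multiple matches) is not given in the sources used here, so overlapping genes cannot be told apart.

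Because the RPKM values are whole multiples of 1 read's worth, the library totals were recovered as common divisors of the inverse values (tolerance 0.002, 20000 random pairs). Reads and gene lengths were then the smallest whole numbers that fit all libraries, with relative errors up to 8.6e-13, and they add up to 98.4% to 99.7% of the totals. The step was tested on simulated data.

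The background holds genes with a mean RPKM of 0.5 or more and, in each comparison, reads in the libraries compared. Differences across genes use log2(RPKM + 0.1), which understates those of low genes. Plain ratios carry exact 95% Clopper-Pearson intervals on reads, and ratios of ratios exact conditional intervals. No p-value is given. All 10 members were named, and of other genes the 2 nearest by pattern. Further mitotic, S-phase, heat shock and marker genes were not used here, since the reference table pairs no Ensembl identifier with a symbol. The members, lists and settings were chosen with earlier results of these data known. Alternatives were other pseudocounts, library scales and filters. The software was Python 3.11.15 with scipy 1.17.1, numpy 2.4.6 and pandas 2.3.3.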

Additional observations from a re-analysis of the deposited data

Results flagged for a closer look

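Each of the 10 mitotic genes had a heat shock ratio above 1 in chromatin and below 1 in cytoplasm, opposite directions in the 2 fractions on the deposited scale. With equal RPKM sums 7 of 10 were above 1 in chromatin, and with the kept genes' median at 0 5 of 10 were above 1 in cytoplasm. With 1 library per group this difference was not tested between cultures. The heat shock ratio in chromatin over that in cytoplasm was 1.75 for Ccnb1, 2.76 for Cdk1 and 3.11 for Ccna2 among the cyclins and their kinase. For the kinases Plk1 and Aurka it was 2.98 and 2.34, and for the checkpoint genes Bub1 and Cdc20 2.19 and 2.01. Kif11 had the largest value of the 10, 4.1. Top2a was at 1.76 and Mki67 at 3.39. The opposite direction was also seen in 40.7% of kept genes.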

How the results depend on the processing

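In chromatin after heat shock against without, the median log2 ratio of the 10 mitotic genes was 0.51 with a pseudocount of 1 RPKM and 0.14 with equal RPKM sums. The number at least 2-fold higher was 0 with either of these, against 7.44% and 6.69% of kept genes. It was 1 with the kept genes' median at 0 (12.5%) and 1 with the median of spans of over 5 to 50 kb at 0 (12.8%). Without Kif11 (chosen after seeing the data) it was 1 (13.3%), and with the 10 highest genes left out of the totals 4 (18.9%). With equal RPKM sums Ccnb1, Top2a and Cdc20 reversed to -0.27, -0.29 and -0.27.

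In cytoplasm the median was -0.30 with the 10 highest genes left out, -0.042 with the kept genes' median at 0 and -0.018 with that of 5 to 50 kb at 0. With equal sums 1 gene was at least 2-fold lower, against 13.1% of kept genes. Ccnb1, Top2a and Kif11 reversed to 0.054, 0.019 and 0.012 with the kept genes' median at 0 and to 0.078, 0.043 and 0.036 with that of 5 to 50 kb at 0. Aurka and Bub1, whose intervals included 1, also changed sign, to 0.31 and 0.21 and to 0.33 and 0.23, and Aurka was at 0.080 with the 10 highest genes left out.

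For chromatin against cytoplasm without heat shock, the median was 1.62 with equal sums, -1.10 with the kept genes' median at 0, -1.57 with the 10 highest genes left out and -0.98 with the 5 to 50 kb median at 0. With equal sums 7 of 10 were at least 2-fold higher in chromatin, against 84.9% of kept genes. In the other 3 settings 6, 10 and 5 of 10 were at least 2-fold lower, against 26.1%, 35.0% and 24.0%. With no pseudocount 2 of 10 were at least 2-fold lower, against 11.6%. With equal sums Plk1, Ccna2 and Cdc20 reversed to 0.59, 0.20 and 0.67. Cdk1, Top2a and Kif11 reversed to -0.98, -0.89 and -0.73 with the kept genes' median at 0, to -1.45, -1.38 and -1.14 with the 10 highest genes left out, and to -0.86, -0.77 and -0.62 with the 5 to 50 kb median at 0.

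For chromatin against cytoplasm after heat shock, the median was 0.68 with a pseudocount of 1 RPKM and 2.26 with equal sums, and it reversed to -0.51 with the kept genes' median at 0, -0.53 with the 10 highest genes left out and -0.44 with the 5 to 50 kb median at 0. With the first 2 of these settings 3 and 10 of 10 were at least 2-fold higher in chromatin, against 34.4% and 87.1% of kept genes. With the last 3 settings 3, 4 and 3 of 10 were at least 2-fold lower, against 24.4%, 23.6% and 22.9%. Ccnb1, Cdk1, Plk1, Top2a, Aurka and Bub1 reversed to -0.999, -0.030, -1.14, -0.56, -0.45 and -0.47 with the kept genes' median at 0 and to -1.01, -0.047, -1.12, -0.60, -0.45 and -0.33 with the 10 highest genes left out. With the 5 to 50 kb median at 0, Ccnb1, Plk1, Top2a, Aurka and Bub1 reversed to -0.92, -1.06, -0.48, -0.37 and -0.39.

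For the chromatin minus cytoplasm difference of heat shock ratios, the median was 0.84 with a pseudocount of 1 RPKM, 0.88 with equal sums, 0.81 with the kept genes' median at 0 and 0.78 with the 5 to 50 kb median at 0. With either centring 3 genes passed 2-fold in favour of chromatin, against 11.3% and 10.8% of kept genes. With the other pseudocounts and filters, this difference and the heat shock ratio in chromatin lay above the kept genes' median for every mitotic gene kept. A filter at a mean of 1 RPKM left out Bub1. The mitotic genes' medians were then 0.77, -0.57, 0.015, 1.07 and 1.42, in the order of comparisons above. Their counts past 2-fold stayed the same, except for chromatin against cytoplasm after heat shock (5 higher in place of 6, against 62.4% of kept genes). All 10 mitotic genes passed the main filter, so their own values could not change without a filter. With no filter the kept genes' median moved to -0.25 in cytoplasm and to 0.75 for chromatin against cytoplasm after heat shock, where 1 and 6 of 10 mitotic genes lay above it, in place of 5 and 2. Centring moves every gene of a comparison together by construction. Equal sums do so only approximately, because the pseudocount is added after scaling. The background changed as well. Equal sums moved the kept genes' median by -0.62 in chromatin and -0.14 in cytoplasm, and of the kept genes past 2-fold in chromatin 18.4% were higher after heat shock, against 55.3% on the deposited scale. No paired analysis was possible because each group has 1 library, and no library could be left out in turn. Genes with fewer reads, such as Plk1 and Bub1 in cytoplasm, have the widest intervals.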
